A study of Rattus norvegicus with 23 samples.

Results

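The Toll-like receptors described here are Tlr1 to Tlr10, a family of 10 genes measured in the lungs of elderly rats after inhalation of a titanium dioxide (TiO2) nanoparticle aerosol. They were taken by gene name, as the probes that carry one of these names in the file of control D28 replicate 4. This gave 10 genes of the 25597 named on the array, with 14 probes. Tlr6 had 3 probes, Tlr3 and Tlr7 had 2 each, and the other receptors had 1. All 10 genes passed the filter against negative control spots. The rats were male F344 rats aged 19 months when exposure began. Exposed rats breathed the aerosol nose-only at 10 mg/m3 for 6 hours a day, 5 days a week, over 4 weeks, and control rats breathed filtered air. Total RNA of the accessory lobe was hybridised with 1 rat per single-colour array. The 23 arrays fell into 4 groups, with 6 control and 5 exposed rats at the end of exposure (D0) and 6 control and 6 exposed rats 28 days later (D28). The design gives 6 exposed rats per time point, but only 5 exposed D0 arrays were listed. The source label of the exposed D28 arrays reads day 0, and the titles, which give day 28, were used.

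Toll-like receptors sense molecules of microbes and of damaged tissue. Each spans a membrane once, with leucine-rich repeats that bind the ligand on the outer side and a TIR domain that recruits adaptor proteins on the inner side. Tlr1, Tlr2, Tlr4, Tlr5, Tlr6 and Tlr10 act mainly at the cell surface, and Tlr3, Tlr7, Tlr8 and Tlr9 act in endosomes, where they sense nucleic acids. Signals run through Myd88, for Tlr3 through Ticam1 and for Tlr4 through both, to NF-kB and interferon regulatory factors. In the lung, macrophages, neutrophils, dendritic cells and epithelial cells carry different members.

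There were 5 slides with 1 to 7 arrays, and all arrays of a slide had the same scan day. For D0, slides 1 and 5 each held 1 exposed and 1 control array, slide 3 held 1 and 2, and slide 4 held 2 and 2. For D28, slides 1 and 3 each held 2 and 2, and slide 5 held 1 and 1. The differences within slides below therefore rest on 1 or 2 arrays per group. The share of spots well above background ran from 69.5 to 77.9%. The lung label was checked with the markers of type II pneumocytes, secretory airway cells and endothelium, and none of these genes lacked an array well above background. Tlr1 to Tlr6, Tlr8 and Tlr9 were well above background on all 23 arrays. Tlr7 was so with both probes on 22 arrays, and Tlr10 on 16 of 23. No probe was saturated. All levels below are quantile-normalised log2 intensities, and a level of one gene was not set against that of another, because probes differ in brightness.

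The probes of Tlr1 and Tlr2 and 1 of the 3 probes of Tlr6 are shown because Tlr2 pairs with Tlr1 or with Tlr6 on the cell surface and varied with each of them between arrays, and because part of the probe sequences is shared. In capitals is, for Tlr1 and Tlr2, the run of 14 bases found in both, and for Tlr6 the run of 10 bases that it shares with Tlr2. The probes lie on rn4 at chr14:46124542-46124601 (Tlr1), chr2:175608160-175608217 (Tlr2, minus strand) and chr14:46100547-46100606 (Tlr6).
Tlr1 probe: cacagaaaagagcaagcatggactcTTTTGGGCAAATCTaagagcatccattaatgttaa
Tlr2 probe: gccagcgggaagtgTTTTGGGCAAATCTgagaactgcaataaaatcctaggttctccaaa
Tlr6 probe: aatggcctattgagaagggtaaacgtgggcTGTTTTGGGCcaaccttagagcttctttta
Laid side by side without gaps, the probes matched at best at 32 of 49 bases for Tlr1 and Tlr2, at 37 of 53 for Tlr1 and Tlr6, and at 27 of 42 for Tlr2 and Tlr6. The probes of Tlr6, Tlr1 and Tlr10 lay in this order within 41.3 kb of chromosome 14 of rn4.

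The probe of Tlr8 and the probe of Tlr7 at chrX:47356167-47356226 are shown because these 2 receptors varied together most closely of all pairs. The probe of Tlr8 is unmapped in the files. No bases are marked, since their longest shared run was 5 bases.
Tlr7 probe: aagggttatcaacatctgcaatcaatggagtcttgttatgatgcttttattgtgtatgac
Tlr8 probe: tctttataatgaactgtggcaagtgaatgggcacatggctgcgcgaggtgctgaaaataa

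The region around the start of Tlr2 is shown because Tlr2 had the lowest p among the receptors. The window of 300 bases, 250 before and 50 after the start of the gene, comes from RefSeq on build GRCr8 at chr2:171504508-171504807, minus strand. Capitals mark 11 bases with overlapping matches to the NF-kB motif, from 206 to 196 bases before the start.
Tlr2 promoter: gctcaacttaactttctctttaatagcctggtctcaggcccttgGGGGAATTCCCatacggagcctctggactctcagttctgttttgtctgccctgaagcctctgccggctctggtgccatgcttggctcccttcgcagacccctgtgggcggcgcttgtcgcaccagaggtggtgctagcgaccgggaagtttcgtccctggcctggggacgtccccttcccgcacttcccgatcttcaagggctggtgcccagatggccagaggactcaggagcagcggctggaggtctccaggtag
A window was found for all 10 receptors, and 5 motifs were searched on both strands. The NF-kB motif matched in Tlr2 alone, where 4.18% of the 33469 windows in the table held it. The letters GAGGAA, bound by PU.1, were in 7 of the 10 windows and in 27.6% of all. TGANTCA, the AP-1 motif, matched in Tlr9 alone, and in 7.33% of all. The motif of interferon regulatory factors and TTCNNNGAA, bound by STAT proteins, matched in none, against 3.92% and 8.87% of all windows. These matches describe letters in a window, not binding.

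No receptor was differentially expressed on either day. A DEG was a gene with a limma adjusted p (Benjamini-Hochberg, over the 23029 genes tested) below 0.05 and a fold change (FC) of at least 1.5. On D0, 0 of 10 receptors passed, beside 1.79% of all genes, and on D28, 0 of 10 passed, beside 0.756%. Without the FC limit, 0 of 10 had such an adjusted p on D0, beside 2.86%, and on D28, beside 1.32%. An unadjusted limma p below 0.05 was reached by 1 receptor on D0, Tlr2, beside 11.9% of all genes, and by 2 on D28, Tlr2 and Tlr10, beside 11%. The median log2 FC of the 10 receptors was 0.12 on D0 and 0.11 on D28, and that of all genes tested was 0.00 and -0.01. For no receptor did the exposed arrays lie apart from the control arrays, on either day, where 4.31% of all genes on D0 and 1.22% on D28 had groups without overlap. In order of group means, exposed D0 was highest for Tlr1, Tlr2, Tlr4, Tlr6 and Tlr9, exposed D28 for Tlr7, Tlr8 and Tlr10, and control D28 for Tlr3 and Tlr5. All 30 steps between neighbouring group means of a receptor in this order were smaller than the larger SD of the 2 groups. These steps do not measure the effect of exposure, because the groups of a day need not be neighbours. For Tlr2, control D0 lay between exposed and control D28. Those 2 groups differed by 0.41, with an SD of 0.22 in each.

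**Figure D1:**
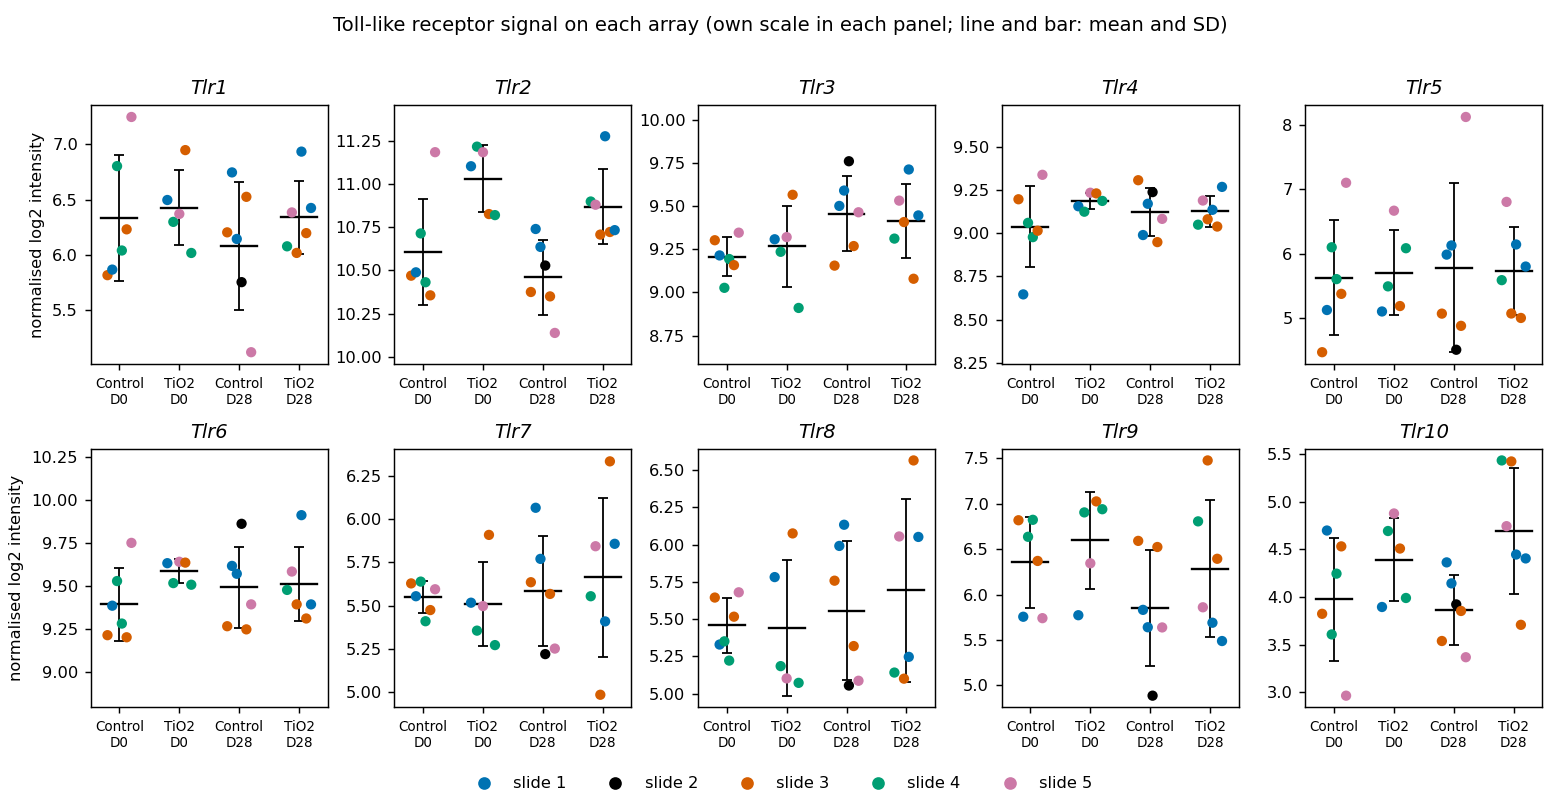
Normalised log2 intensity of each of the 10 receptors on each of the 23 arrays, by group, with a scale of its own in each panel. Each point is 1 array and its colour gives the slide, the line is the group mean and the bar the SD. Exposed and control arrays overlap in every panel on both days, Tlr2 is higher in the exposed groups, and the colours separate in Tlr5 and Tlr9.

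Tlr2, which senses bacterial lipoproteins as a dimer with Tlr1 or Tlr6, was the receptor with the lowest p. On D0 the level was 10.36 in the lowest control, 10.48 at the median and 11.19 in the highest, and the exposed rats had 11.10, 11.22, 11.18, 10.83 and 10.82. All 5 exposed rats were above the control median and 1 was above every control. On D28 the controls ranged from 10.14 to 10.74 with a median of 10.45, and the exposed rats from 10.71 to 11.28 with a median of 10.81. All 6 were above the control median and 3 above every control. In order of their means, the groups were exposed D0 at 11.03 ± 0.19 (SD, n = 5), exposed D28 at 10.87 ± 0.22 (SD, n = 6), control D0 at 10.61 ± 0.31 (SD, n = 6) and control D28 at 10.46 ± 0.22 (SD, n = 6).

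The log2 FC of Tlr2 was 0.42 on D0 (standard error 0.15, limma adjusted p = 0.155) and 0.41 on D28 (standard error 0.14, adjusted p = 0.192). The effects of the days differed by -0.01 with a 95% interval from -0.43 to 0.41 (limma adjusted p = 1.00). Averaged over both days the log2 FC was 0.42 with a 95% interval from 0.21 to 0.63, a FC of 1.33, and its limma adjusted p was 0.0129. Over the other settings this p ranged from 0.00306 to 0.0273, and over the fits without 1 array from 0.00207 to 0.0296. Tlr2 was the only receptor with an adjusted p below 0.05 in the averaged effect, where 6.55% of all genes had one, and it stayed under the FC limit. With the limit, 0 of 10 receptors passed in the averaged effect, beside 1.87% of all genes. An unadjusted p below 0.05 was reached by Tlr2 and Tlr10, beside 17.2% of all genes.

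Single rats weighed on these values. Control D0 replicate 6 had the highest control level of Tlr2, 11.19, and without it the log2 FC on D0 was 0.54 with an adjusted p of 0.0274 in limma. Exposed D28 replicate 4 had the highest level of all arrays, 11.28, and without it the log2 FC on D28 was 0.33. Within slides, exposed rats were higher than controls of the same day on 3 of 3 slides on D28, by 0.32 to 0.74, and on 3 of 4 on D0, where the differences ran from -0.00044 to 0.62. With the slide as a block the log2 FC was 0.40 on D0 and 0.43 on D28. On D28, Tlr3, Tlr6 and Tlr10 were also higher in exposed rats on 3 of 3 slides. The differences ran from 0.03 to 0.07 for Tlr3 and from 0.06 to 0.19 for Tlr6.

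Some markers of immune cells were higher in the same groups as Tlr2, and others of the same lists were not. Of 7 macrophage markers, 6 had a positive log2 FC on D0 and 5 on D28. Siglec1 was a DEG on D0, with a log2 FC of 0.89 (limma adjusted p = 0.00262), and Cd68, at 0.55 on D0 and 0.42 on D28, had an adjusted p of 0.00293 and 0.0294 in limma under the FC limit. Adgre1 had -0.25 on D0, and Csf1r had 0.01 on D0 and -0.16 on D28. The summed linear level of the 7 was 10034 to 12834 in controls and 14851 to 17844 in exposed rats on D0, without overlap, and 9183 to 12150 against 11626 to 15030 on D28, but Cd68 alone made up 70.3 to 82.7% of it. All 7 had arrays well above background.

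The 6 measured monocyte and dendritic cell markers had positive log2 FC on both days. Clec9a was a DEG on D0, with a log2 FC of 1.00 (limma adjusted p = 0.0242), and no marker was one on D28. Their sum was 28393 to 35099 in controls and 37226 to 50254 in exposed rats on D0, and 23046 to 38252 against 38367 to 47716 on D28, without overlap on either day, and Cd74 made up 98.5 to 99.1% of it. Xcr1 was not well above background on any array.

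Of the 6 measured neutrophil markers, 3 had a positive log2 FC on D0 and 2 on D28, and Csf3r, Cxcr2 and Ltf were negative on both days, from -0.10 to -0.19. Their sum, of which S100a9 made up 86.0 to 92.6%, was 17293 to 51097 in controls and 12391 to 50532 in exposed rats on D0, and 14650 to 35088 against 22821 to 61223 on D28. Elane and Ltf were not well above background on any array. S100a9 was also the gene most like Tlr2 over these same arrays (r = 0.85), so the ranks below are no separate evidence. The arrays named were singled out after the levels were seen. The 2 arrays with the highest neutrophil sums, exposed D28 replicate 4 and control D0 replicate 6, ranked 1 and 3 of 23 for Tlr2. Their macrophage sums ranked 7 and 11, and their monocyte and dendritic cell sums 7 and 22. The array with the lowest neutrophil sum, exposed D0 replicate 4, had a Tlr2 level of 10.83, above 5 of the 6 controls of its day. It ranked 3 of 23 by macrophage sum and 1 by monocyte and dendritic cell sum. In RNA of a whole lobe, more cells of a type and more RNA per cell cannot be told apart, and the part of these cells in the Tlr2 difference was not tested.

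**Figure D2:**
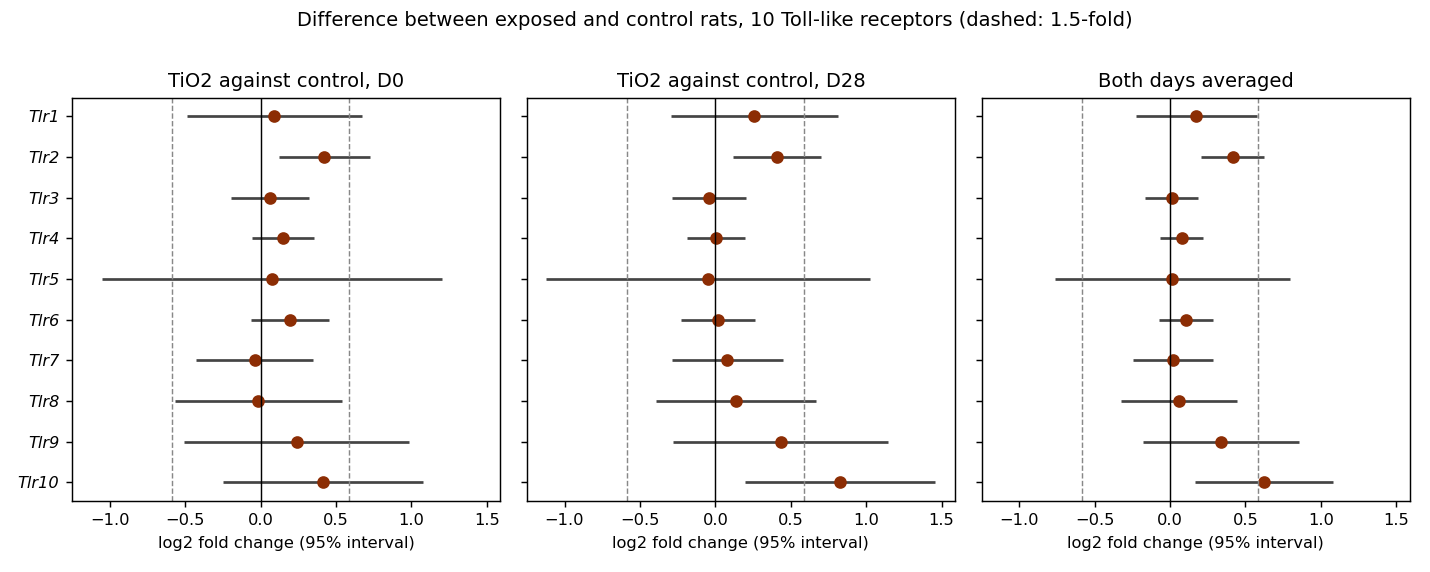
Log2 fold change of exposed against control rats for the 10 receptors on D0, on D28 and averaged over both days, as points with 95% intervals from limma (dashed lines at a 1.5-fold change). The interval of Tlr2 excludes 0 in all panels and that of Tlr10 on D28 and in the average, while those of Tlr3, Tlr4, Tlr6 and Tlr7 lie inside the dashed lines in all panels.

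Tlr1 and Tlr6, the partners of Tlr2, were not past the threshold. The level of Tlr1 was 6.33 ± 0.57 (SD, n = 6) in controls and 6.43 ± 0.34 (SD, n = 5) in exposed rats on D0, which gave a difference of 0.09 (standard error 0.28, limma adjusted p = 0.991). On D28 it was 6.08 ± 0.58 and 6.34 ± 0.33 (SD, n = 6 each), which gave 0.26 (standard error 0.27, limma adjusted p = 0.824). The controls alone spanned 5.82 to 7.25 on D0 and 5.12 to 6.75 on D28, so the exposed rats lay within them but for 1 rat of D28. Leaving out 1 array moved the log2 FC of D28 to 0.06 (without control D28 replicate 6), 0.14 (without exposed D28 replicate 4) or 0.39 (without control D28 replicate 2), and it was 0.15 with normexp and 0.17 in the deposited table.

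Tlr6 was more even between rats. On D0 the controls had a lowest level of 9.20, a median of 9.33 and a highest of 9.75, and the exposed rats had 9.63, 9.52, 9.64, 9.64 and 9.51. All 5 exposed rats were above the control median and none was above the highest control. The log2 FC was 0.19 (standard error 0.12, limma adjusted p = 0.656), and on D28 it was 0.02 (standard error 0.12, adjusted p = 0.982). Its 3 probes gave 0.23, 0.23 and 0.12 on D0, and the deviations of their levels from the group means correlated at 0.58 to 0.75 over the 23 arrays.

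Tlr10, which is grouped with Tlr1, Tlr2 and Tlr6 by sequence, had the largest log2 FC of the receptors on D28, though not with normexp background correction or in the deposited table, where Tlr2 was larger, and it had the fewest arrays well above background. It was well above background on 4 of 6 control and 4 of 5 exposed arrays on D0, and on 3 of 6 and 5 of 6 on D28. On D0 the controls ranged from 2.97 to 4.70 with a median of 4.04, and the exposed rats had 3.90, 4.69, 4.88, 4.51 and 3.99. The highest exposed rat was above every control and the others were within their range. On D28 the controls ranged from 3.37 to 4.36 with a median of 3.89, and the exposed rats from 3.71 to 5.43 with a median of 4.60. Here 5 of 6 exposed rats were above every control.

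The log2 FC of Tlr10 was 0.41 on D0 (standard error 0.32, limma adjusted p = 0.768) and 0.83 on D28, a FC of 1.77 (standard error 0.30, adjusted p = 0.244). The difference between the days was 0.41 with a 95% interval from -0.50 to 1.33. The averaged log2 FC of 0.62, a FC of 1.54, had a limma adjusted p of 0.107, with a range of 0.0985 to 0.146 over the other settings. The size changed with the setting, and the averaged log2 FC was 0.15 with normexp and 0.22 in the deposited table, and that of D28 was 0.23 and 0.32. Single rats weighed here too. Without control D0 replicate 6 the log2 FC on D0 was 0.21. Without exposed D28 replicate 5, the lowest of its group at 3.71, the averaged log2 FC was 0.72 with a limma adjusted p of 0.0408, past both limits. Within slides, exposed rats were higher on 3 of 3 slides on D28, by 0.17 to 1.37, and on 3 of 4 on D0, from -0.80 to 1.91.

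Tlr4, the receptor of bacterial lipopolysaccharide with Ly96 and Cd14, showed the narrowest intervals. On D0 the controls ranged from 8.65 to 9.34 with a median of 9.04, and the exposed rats had 9.16, 9.13, 9.24, 9.23 and 9.19. All 5 exposed levels lay above the control median and below the highest control. The log2 FC was 0.15 on D0 (standard error 0.10, limma adjusted p = 0.675) and 0.00 on D28 (standard error 0.09, adjusted p = 0.997). The 95% intervals, from -0.06 to 0.35 on D0 and from -0.19 to 0.20 on D28, left out a 1.5-fold change in either direction.

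Tlr5, the receptor of bacterial flagellin, could not be measured as closely, because its level followed the slide. The 4 arrays of slide 5, singled out after the levels were seen, had levels of 6.67 to 8.12. The 19 other arrays had 4.47 to 6.14. Slide means took 85.4% of the variance of Tlr5 around the group means, beside a median of 41.2% over all genes tested. The log2 FC was 0.08 on D0 (standard error 0.54, limma adjusted p = 0.996) and -0.05 on D28 (standard error 0.52, adjusted p = 0.991). With the slide as a block the standard errors fell to 0.24, and the log2 FC was -0.08 on D0 and -0.34 on D28 (limma adjusted p = 0.940 and 0.546).

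Among the endosomal receptors, Tlr3, which binds double-stranded RNA, showed no difference past the threshold on either day. On D0 the controls ranged from 9.03 to 9.35 with a median of 9.20, and the exposed rats had 9.31, 9.24, 9.32, 9.57 and 8.91, with 1 above and 1 below every control. The log2 FC was 0.06 on D0 (standard error 0.12, limma adjusted p = 0.974) and -0.04 on D28 (standard error 0.12, adjusted p = 0.957), and both intervals lay inside a 1.5-fold change. Its 2 probes gave 0.09 and 0.03 on D0 and -0.04 both on D28. With the slide as a block the log2 FC of Tlr3 on D28 was 0.05. Tlr3 had a higher mean in controls of D28, 9.46 ± 0.22 (SD, n = 6), than in controls of D0, 9.21 ± 0.11 (SD, n = 6), with a limma adjusted p of 0.367. It was the only receptor with an unadjusted p below 0.05 in that comparison, beside 13.3% of all genes. In control rats of D28 against D0, 0 of 10 receptors were DEGs, beside 0.608% of all genes.

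Tlr7 and Tlr8, which sense single-stranded RNA, spread more among rats than between groups. The level of Tlr7 was 5.55 ± 0.09 (SD, n = 6) in controls and 5.51 ± 0.25 (SD, n = 5) in exposed rats on D0, and 5.58 ± 0.32 and 5.66 ± 0.46 (SD, n = 6 each) on D28. The exposed rats had 5.52, 5.35, 5.50, 5.91 and 5.27 on D0, where 1 was above every control and 2 were below every control. The level of Tlr8 was 5.46 ± 0.19 (SD, n = 6) and 5.44 ± 0.46 (SD, n = 5) on D0, and 5.56 ± 0.47 and 5.69 ± 0.61 (SD, n = 6 each) on D28. On D0 the exposed rats had 5.78, 5.19, 5.10, 6.08 and 5.07 for Tlr8, with 2 above and 3 below all 6 controls. The log2 FC of Tlr7 was -0.04 on D0 and 0.08 on D28, and that of Tlr8 was -0.01 and 0.14, with limma adjusted p from 0.926 to 0.998.

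Tlr9, the receptor of unmethylated CpG DNA, also followed the slide. The 12 arrays of slides 3 and 4 had levels of 6.37 to 7.48 and the 11 arrays of the other slides had 4.89 to 6.34. These 2 slides were singled out after the levels were seen. Slide means took 85.7% of the variance of Tlr9 around the group means. On D0 the controls ranged from 5.74 to 6.82 with a median of 6.50, and the exposed rats had 5.77, 6.90, 6.34, 7.03 and 6.94. On D28 the controls ranged from 4.89 to 6.59 with a median of 5.74 and the exposed rats from 5.49 to 7.48 with a median of 6.13. The groups overlapped on both days, with 3 of 5 exposed rats above every control on D0 and 2 of 6 on D28, and none below every control.

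The log2 FC of Tlr9 was 0.24 on D0 (standard error 0.36, limma adjusted p = 0.948) and 0.43 on D28 (standard error 0.34, adjusted p = 0.727). With the slide as a block these became 0.30 (standard error 0.16, limma adjusted p = 0.356) and 0.14 (standard error 0.16, adjusted p = 0.742). Within slides, exposed rats were higher on 4 of 4 slides on D0, by 0.02 to 0.60, and on 2 of 3 on D28, from -0.15 to 0.38. Control D28 replicate 4, the only array of slide 2, had the lowest Tlr9 level of all, 4.89, and without it the log2 FC of D28 was 0.24. Without exposed D28 replicate 3 it was 0.20. On D0 the value ran from 0.12 without control D0 replicate 6 to 0.45 without exposed D0 replicate 1.

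**Figure D3:**
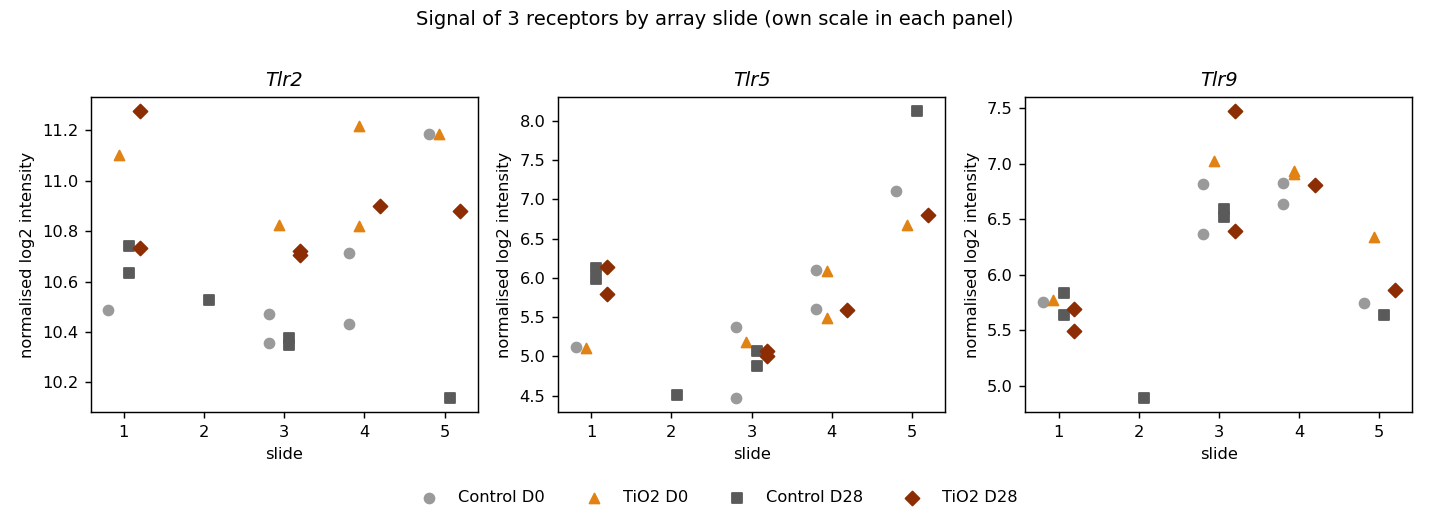
Normalised log2 intensity of Tlr2, Tlr5 and Tlr9 on the 23 arrays by slide, with a scale of its own in each panel. Colours and shapes give the group. Tlr5 stands at 6.67 to 8.12 on slide 5 and Tlr9 at 6.37 to 7.48 on slides 3 and 4, in exposed and control rats alike, while for Tlr2 the exposed mean of D28 lies 0.32 to 0.74 above the control mean on each of the 3 slides that held both.

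The effect of exposure did not differ between the days for any receptor past the threshold. The difference of the D28 and D0 effects gave 0 DEGs among the 10 receptors, beside 0.0304% of all genes, and 0 with an unadjusted limma p below 0.05, beside 3.44%. The 95% intervals were inside a 1.5-fold change for Tlr2, Tlr3, Tlr4 and Tlr6. The standard errors of the effects on D0 ran from 0.10 for Tlr4 to 0.54 for Tlr5. On D0 the 95% interval lay inside a 1.5-fold change for 5 receptors, Tlr3, Tlr4, Tlr6, Tlr7 and Tlr8, and on D28 for 4 of them, without Tlr8. For Tlr1, Tlr2, Tlr5, Tlr9 and Tlr10 a change of this size was not left out on either day.

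The receptors were also compared with each other over the 23 arrays, after the mean of its group was subtracted from each level. All 45 pairs were tested by a permutation within groups (100000 resamples, two-sided, Benjamini-Hochberg over the pairs). The permutation took no account of the slide, so slide differences shared by 2 receptors can lower its p. No p was computed for the r after slide means were removed. Tlr7 and Tlr8, which neighbour each other on chromosome X in GRCr8, were the closest pair, with a Pearson r of 0.88 (permutation p = 2.0e-05, adjusted 0.0009) and a Spearman rho of 0.93 (permutation p = 3.0e-05, adjusted 0.00135). The r was 0.86 without the 2 arrays farthest from the median of Tlr7, and 0.88 after slide means were removed. Each probe of Tlr7 gave it, with 0.76 and 0.82.

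Tlr2 and Tlr6 followed with an r of 0.77 (permutation p = 0.00034, adjusted 0.00765) and a rho of 0.67 (permutation p = 0.00046, adjusted 0.0103). Without 2 arrays the r was 0.73, and after slide means were removed 0.76. Tlr1 and Tlr2 had an r of 0.67 (permutation p = 0.00255, adjusted 0.0287) and a rho of 0.58 (permutation p = 0.00903, adjusted 0.0853), and an r of 0.48 without 2 arrays and of 0.77 after slide means were removed. Tlr1 and Tlr6 had an r of 0.46 (permutation p = 0.0565, adjusted 0.271), a rho of 0.35 (permutation p = 0.141, adjusted 0.452) and an r of 0.75 after slide means were removed. The part of the shared probe bases shown above in these pairs was not tested.

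Tlr3 and Tlr6 had an r of 0.67 (permutation p = 0.00058, adjusted 0.0087) and a rho of 0.67 (permutation p = 0.00108, adjusted 0.0162), which was 0.64 without 2 arrays and 0.48 after slide means were removed. In all, 5 pairs had an adjusted p below 0.05 for r, and 3 of them for rho too. The fifth was Tlr6 and Tlr9, for which no pooled value is given because Tlr9 was split by slide, and after slide means were removed its r was 0.17. With Tlr7 and Tlr8, the r was 0.09 and 0.04 for Tlr2 (permutation adjusted p = 0.795 and 0.899) and -0.09 and -0.11 for Tlr6 (permutation adjusted p = 0.821 and 0.795). Tlr1 had larger values with both, an r of 0.43 and 0.38 (permutation p = 0.0304 and 0.0601, adjusted 0.195 and 0.271) and a rho of 0.48 and 0.47 (permutation p = 0.0219 and 0.0192, adjusted 0.123 both).

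**Figure D4:**
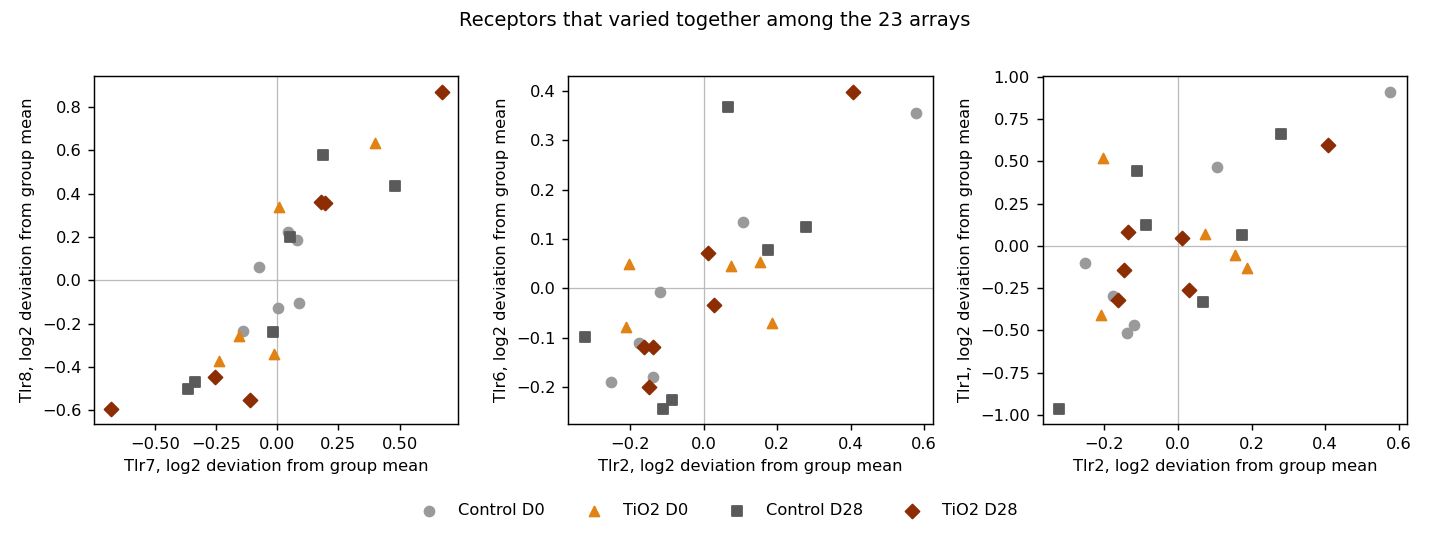
Deviation of 1 receptor from its group mean against that of another, in log2 units, for Tlr7 and Tlr8, Tlr2 and Tlr6, and Tlr2 and Tlr1. Each point is 1 of the 23 arrays, with colours and shapes for the groups. Tlr7 and Tlr8 rise together in arrays of all 4 groups, with an r of 0.88, and Tlr2 and Tlr1 more loosely, with an r of 0.67.

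**Figure D5:**
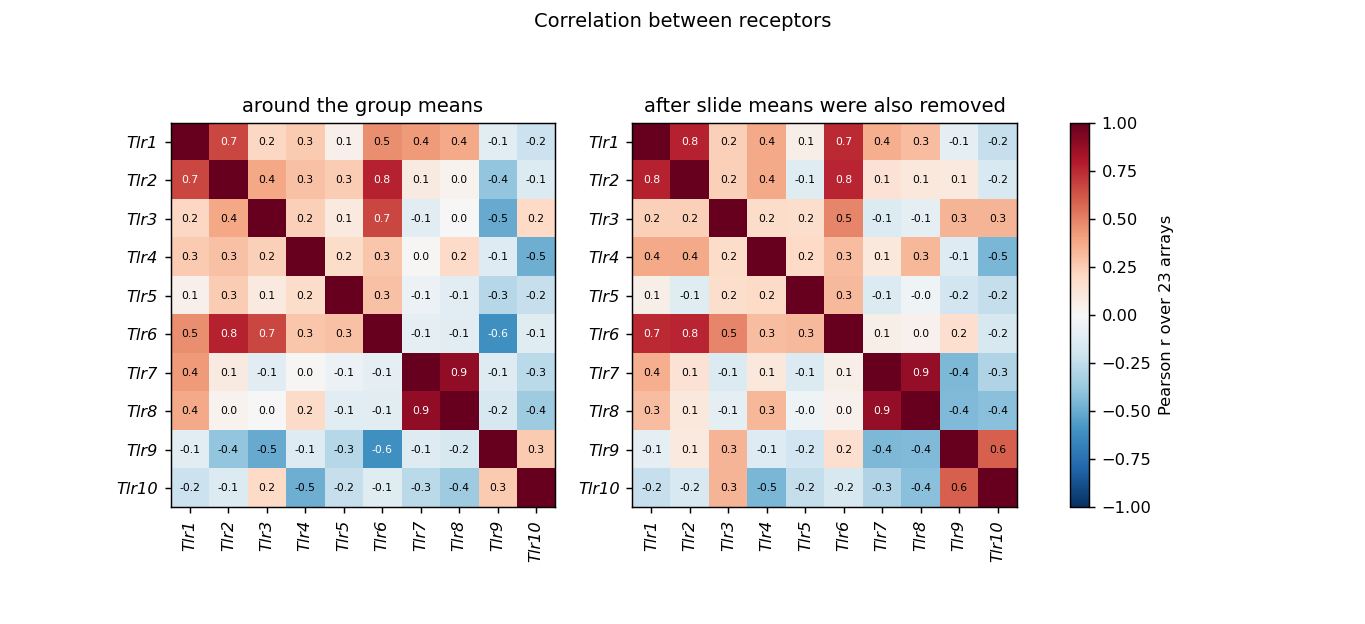
Pearson correlation between the 10 receptors over 23 arrays, with the deviations from group means on the left and with slide means removed as well on the right. Red is positive and blue negative. The blocks of Tlr1, Tlr2 and Tlr6 and of Tlr7 and Tlr8 are red on both sides, and the blue cell of Tlr6 and Tlr9 on the left is at 0.17 on the right.

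The genes most like each receptor were sought among 13415 others well above background on all 23 arrays, as a description by the Pearson r of the log2 levels over the arrays, which share slides and groups. For Tlr2 they were S100a9, a calcium-binding protein of neutrophils (0.85), Saal1 (0.83) and Rnaset2 (0.83), and after group and slide means were removed these were 0.79, 0.55 and 0.59. For Tlr1 they were Ptafr, the receptor of platelet-activating factor (0.82), the interferon-induced Oasl2 (0.80) and Slfn4 (0.75), which were 0.83, 0.83 and 0.91 within groups and slides. For Tlr6 they were Sirpd (0.85), Cyth4 (0.83) and Rnf4 (0.80). For Tlr3 they were Cops5 (0.85), Ubqln1 (0.85) and LOC103691207 (0.84). The likeness was lower for Tlr4, with Etf1 (0.66), Ints13 (0.63) and Ccnk (0.59), and for Tlr8, with LOC103693320 (0.77), Caskin1 (0.73) and LOC102548283 (0.70). Tlr5 and Tlr9 were split by slide, so only values within groups and slides are given: 0.65 to 0.73 for Tlr5 with Etv3, Evi5 and Snapc2, and for Tlr9 0.41 with Oprd1, 0.44 with LOC102556358 and 0.88 with Jph2.

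The pathway around the receptors was described by 8 lists with 88 genes, of which 87 were tested. On D0, 1 gene was a DEG, on D28 none, and in the averaged effect 2, beside 1.79%, 0.756% and 1.87% of all genes. The cytokines and surface molecules that the receptors induce held these genes. Tnf, an inflammatory cytokine made by macrophages, ranged from 6.61 to 7.70 in controls on D0, and the exposed rats had 8.42, 8.15, 8.39, 7.74 and 8.58, without overlap. Its log2 FC was 1.06 (standard error 0.22, limma adjusted p = 0.00887), a FC of 2.08. On D28 it was 0.26 (standard error 0.21, limma adjusted p = 0.737), and the difference between the days was -0.80 with an adjusted p of 1.00 in limma. Cxcl2, a chemokine that attracts neutrophils, was a DEG in the averaged effect, with a log2 FC of 0.96 (limma adjusted p = 0.0133), 1.17 on D0 and 0.75 on D28. The exposed rats had 11.18, 10.98, 11.50, 9.19 and 10.91 on D0, against 9.11 to 10.01 in controls, so that 4 of 5 were above every control. The fifth was replicate 4, the array with the lowest sum of neutrophil markers, of which S100a9 was most.

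In the other lists no gene was a DEG on either day. The co-receptors and accessory proteins had a median log2 FC of 0.19 on D0 and 0.17 on D28, with 9 of 11 genes higher on each day. The 6 adaptors had medians of 0.26 and 0.08, the 18 kinases and ubiquitin ligases 0.01 and 0.00, and the 9 transcription factors 0.06 and 0.13. The 13 inhibitors had medians of 0.04 and 0.06, the 8 endogenous ligands 0.00 and -0.05, and the 20 induced molecules 0.21 and 0.14. Among the partners of the receptors, singled out after their values were seen, Tril, an accessory protein of Tlr4 and Tlr3, had a log2 FC of -0.56 on D0 (standard error 0.19, limma adjusted p = 0.145) and -0.24 on D28. Cd14 had a log2 FC of 0.50 on D0 (standard error 0.14, limma adjusted p = 0.0676) and 0.12 on D28. Ly96 had 0.09 and 0.16, Unc93b1, which carries endosomal receptors to their place, had 0.24 and 0.19, and the adaptor Myd88 had 0.27 and 0.12, with limma adjusted p from 0.269 to 0.981. Under the FC limit, an adjusted p below 0.05 was also reached by Ccl3 on D0 and by Ccl3 and Irf5 in the averaged effect, with log2 FC of 0.48, 0.43 and 0.28.

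The receptors Tlr11, Tlr12 and Tlr13 were looked at apart, after their values were seen. Tlr11 was well above background on 3 of 6 control and 5 of 5 exposed arrays on D0, and on 2 and 5 of 6 on D28, with log2 FC of 0.58 and 0.85 (limma adjusted p = 0.636 and 0.277 for the probe). The 2 probes of Tlr12 disagreed, with log2 FC of 0.05 and 0.75 on D0 and -0.03 and 0.57 on D28. In the fit of single probes the second passed both limits in the averaged effect, with a log2 FC of 0.66 and a limma adjusted p of 0.0298, and the first had an adjusted p of 0.994. The 2 probes that the other array files name Tlr13 had log2 FC of 0.03 and 0.05 on D0 and 0.27 and 0.12 on D28, with limma adjusted p of 0.808 and above.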

How the data were processed

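Lung RNA of 23 rats was hybridised to Agilent single-colour arrays. The authors deposited the scanner output of each array, whose processed signal is an intensity per spot, corrected for background within the array by Agilent Feature Extraction (22 arrays with version 11.0.1.1, the remaining 1 with 12.0.1.1), and 1 table of quantile-normalised intensities of all arrays, used as an alternative. Here control spots were removed and outlier spots set missing. A probe was kept (40417 of 45598) where 5 or more arrays showed it brighter than the 95th percentile of their 308 negative controls. Log2 signals were quantile normalised and averaged over the spots of a probe and the probes of a gene. This gave 23029 named genes, after 29 with missing values were dropped. One limma model (version 3.58.1, R 4.3.3) with 4 group means (19 residual degrees of freedom) gave 5 contrasts: exposed against control on D0 and on D28, their average, their difference, and control D28 against D0. The fit was tested on simulated data with independent noise for each array and no slide effects, so that test does not cover slide differences.

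The 10 receptors, the 8 pathway lists and 9 cell marker lists (macrophages, neutrophils, monocytes and dendritic cells, B cells, T cells, type II pneumocytes, endothelium, secretory airway cells, muscle) were chosen with earlier results of these data known. Named were all receptors, pathway DEGs, the 3 genes most like each receptor that was well above background on all arrays, and markers beside a result. P-values of the main model measure the spread between arrays of 1 rat each. This model had no term for the slide, so the spread holds differences between slides as well as between rats. The number of rats limits the precision. Replicate numbers in the labels were not taken as pairs: over 33 pairs of same-numbered arrays the deviations from group means correlated at -0.30 to 0.46, and 12 were over 0.1. The array files give probe positions on rn4, and promoters come from RefSeq on GRCr8. The alternatives were 75th percentile scaling, normexp background correction (offset 50), the deposited table, no filter or one on spots well above background, the brightest probe, each probe alone, robust estimation with an intensity trend, only 1 day's arrays, the slide or the replicate number as a block, no FC limit, an unadjusted p, and leaving out each of the 23 arrays.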

Additional observations from a re-analysis of the deposited data

Results flagged for a closer look

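Of the 40 groups of receptor levels examined, 1 held an array far from the others. Exposed D28 replicate 4 had a Tlr2 level of 11.28, and the next highest of its group was 10.90, a gap of 0.664 of the range of the group, where the critical value for 6 arrays is 0.625. Chance gives about 1 such group in 20. Without this array the log2 FC of Tlr2 was 0.33 on D28 (standard error 0.14, limma adjusted p = 0.349) and 0.38 averaged over both days (standard error 0.10, adjusted p = 0.0221). The same array had the highest sum of neutrophil markers of the 23, 61223, most of it S100a9, and whether this bears on its Tlr2 level was not tested.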

How the results depend on the processing

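No receptor was a DEG on D0 under any of the settings run. One was on D28 with an unadjusted p and the FC limit (1, Tlr10). In the averaged effect, 1 was without the FC limit (Tlr2), 1 with an unadjusted p (Tlr10), and 0 to 1 over the fits without 1 array (Tlr10 without exposed D28 replicate 5). Of 1750 values of log2 FC of single receptors under the alternatives, 1746 kept their side of the threshold and 4 came past it, and 113 changed sign, each with an unadjusted p above the threshold. Many could not move, as for a day's log2 FC without an array of the other day, so these counts do not measure robustness. Those past the threshold were at an unchanged log2 FC under a changed limit, but for Tlr10 without exposed D28 replicate 5. The number of pathway DEGs on D0, 1, became 2 with the deposited table, each probe alone, the intensity trend, no FC limit or normexp, 3 with the brightest probe or the filter on spots well above background, 6 with an unadjusted p, and 1 to 3 without 1 array (3 without exposed D0 replicate 4, 2 without exposed D28 replicate 4). On D28, 0 became 4 with an unadjusted p. In the averaged effect, 2 became 1 with the deposited table or normexp, 4 with the brightest probe, each probe alone or no FC limit, 6 with an unadjusted p or the filter, and 2 to 5 without 1 array (4 without control D0 replicate 5, control D28 replicate 5, exposed D0 replicate 4 or exposed D28 replicate 5, and 5 without exposed D0 replicate 5). In control rats, 0 became 1 without the FC limit, 2 with an unadjusted p, and 0 to 1 without 1 array (control D28 replicate 6), and in the difference between days 0 became 2 with an unadjusted p. The cause was not tested. With the replicate number as a block, which the labels do not show to mark pairs, 0 receptors and 1 pathway gene on D0 were DEGs, and the averaged log2 FC of Tlr2 was 0.42 (limma adjusted p = 0.0273). Over all genes, the 412 DEGs of D0 became 221 with normexp, 659 without the FC limit and 946 with an unadjusted p, and the 174 of D28 became 42 with only the arrays of the day, 94 with normexp, 303 without the FC limit and 664 with an unadjusted p. The 430 of the averaged effect became 144 with normexp, 190 with the deposited table, 1509 without the FC limit and 654 with an unadjusted p. The 7 of the difference became 14 with normexp, 13 with the filter, 12 with the intensity trend and 461 with an unadjusted p, and the 140 in control rats became 763 with an unadjusted p.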

Other observations

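The other cell marker lists gave these summed linear levels. Type II pneumocyte markers were 209445 to 235468 in controls and 245558 to 261156 in exposed rats on D0, without overlap, and 203195 to 231363 against 207823 to 250222 on D28. Secretory airway cell markers overlapped on both days, at 127645 to 166117 against 109589 to 166618 on D0. Endothelial markers were 55038 to 67173 in controls and 46488 to 62272 in exposed rats on D0, and 56792 to 82874 against 46831 to 66716 on D28. Muscle markers were 7010 to 10247 against 5394 to 7566 on D0 and 7726 to 10319 against 5514 to 8118 on D28, while Nppa was not well above background on any array and Myh6 did not pass the filter. B cell markers were 798 to 1106 against 708 to 882 on D0, and T cell markers 2819 to 3484 against 2640 to 3894. None of these genes was a DEG on either day. Under the FC limit, Tek, Tnnt2 and Actc1 had a limma adjusted p below 0.05 on D28, with log2 FC of -0.46, -0.56 and -0.43. The type II pneumocyte markers had single log2 FC from 0.06 to 0.40 on D0, with limma adjusted p of 0.206 and above.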
